A study of Mus musculus with 6 samples.

Results

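The genes described here are 49 genes of complement and coagulation, without the serpin inhibitors, in the livers of mice given poloxamer P-407. They were chosen by gene symbol among the features of 2 Agilent array types, 24 for complement and 25 for coagulation and fibrinolysis. Of the 49 members, 47 were measured on all 3 oligonucleotide arrays, among 16871 genes in all, and 35 on all 3 cDNA arrays, among 5011 genes. Values for C3 and Cfd are not analysed here. Female C57BL/6 mice, 7 weeks old at the start and on chow with 4.4% fat, received either 0.5 g/kg of P-407 or normal saline by injection into the abdomen every 3 days up to day 96. The 12 treated mice gave 3 pools of liver RNA, and the 4 given saline gave 1 control pool. Each array carried 1 treated pool in Cy5 against the same control pool in Cy3, so there were 6 arrays in all, 3 of each type. The dyes were never exchanged. Every p-value therefore leaves out the spread between control mice, and for any gene the dye and the treatment cannot be told apart. In whole liver, fewer cells of a type and less RNA per cell cannot be told apart either.

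Each value is the authors' log ratio of treated over control, read as log2, since the base is a detail not given in the sources used here. A ratio above 0 means more RNA in the treated pool. The files hold no intensities, so neither the level of a gene nor the presence of the markers of a liver cell type could be checked, only their change. A gene was called higher or lower at a limma adjusted p under 0.05 over all genes of that array type. On the oligonucleotide arrays 43.4% of all genes were called, 22.0% higher and 21.4% lower, so a call alone is common in these data. On the cDNA arrays 0% were called, or 0 of 5011 genes, although 1518 had an unadjusted p under 0.05, and one-sample tests lacking limma's prior called 1 gene. The median SD between pools was 0.08 over all genes of the oligonucleotide arrays and 0.32 over those of the cDNA arrays.

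Complement is a set of blood proteins that mark microbes and dying cells for uptake. C1q and the lectins recognise a surface, the proteases that follow cleave C4, C2 and C3, and the terminal components from C5 to C9 build a pore. Coagulation is a parallel chain of proteases that ends with thrombin, fibrin and the cross-linking of the clot, and plasmin takes the clot apart again. Hepatocytes release most of these proteins into blood. Macrophages make C1q, and myeloid cells make properdin, the anaphylatoxin receptors and the receptor of urokinase. The members were sorted by this textbook knowledge into 10 genes made mainly by macrophages or other myeloid cells, 32 made mainly by hepatocytes and 7 with another main source, such as endothelium or fat.

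Most members made by macrophages were higher in the treated livers on the oligonucleotide arrays, and members made by hepatocytes had a median ratio near 0. On the oligonucleotide arrays 8 of 10 macrophage-made members were higher and 1 lower, with a median log2 ratio of 0.47; Plau was the lower one and F13a1 was not called. One-sample tests lacking limma's prior called 0 of the 47 members on these arrays, and 40 of 16871 genes. Of 31 hepatocyte-made members, 8 were higher, 6 lower and 17 not called, with a median of 0.04. Without the hepatocyte genes that macrophages also make (C2, C3, C4b, Cfb, C1ra, F5, F10 and Pros1), the median of the other 24 was -0.078, with 5 higher and 6 lower. Of the 6 measured members of other source, 1 was higher and 2 lower, with a median of -0.11. The median over all 16871 genes was 0.00. The hepatocyte-made share of calls, 14 of 31, was near the 43.4% of all genes. A log2 ratio of at least 0.5 in either direction was reached by 5 macrophage-made members, by 1 hepatocyte-made member and by 5.51% of all genes. Leaving out pool 1 left 2 of 31 hepatocyte-made members higher, against 7 of 10 macrophage-made ones and 1996 of 16871 genes. Without pool 2 the counts of higher genes were 9 and 8, against 2533 of 16886 genes. Without pool 3 they were 6 and 7, against 3180 of 16872 genes.

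**Figure D1:**
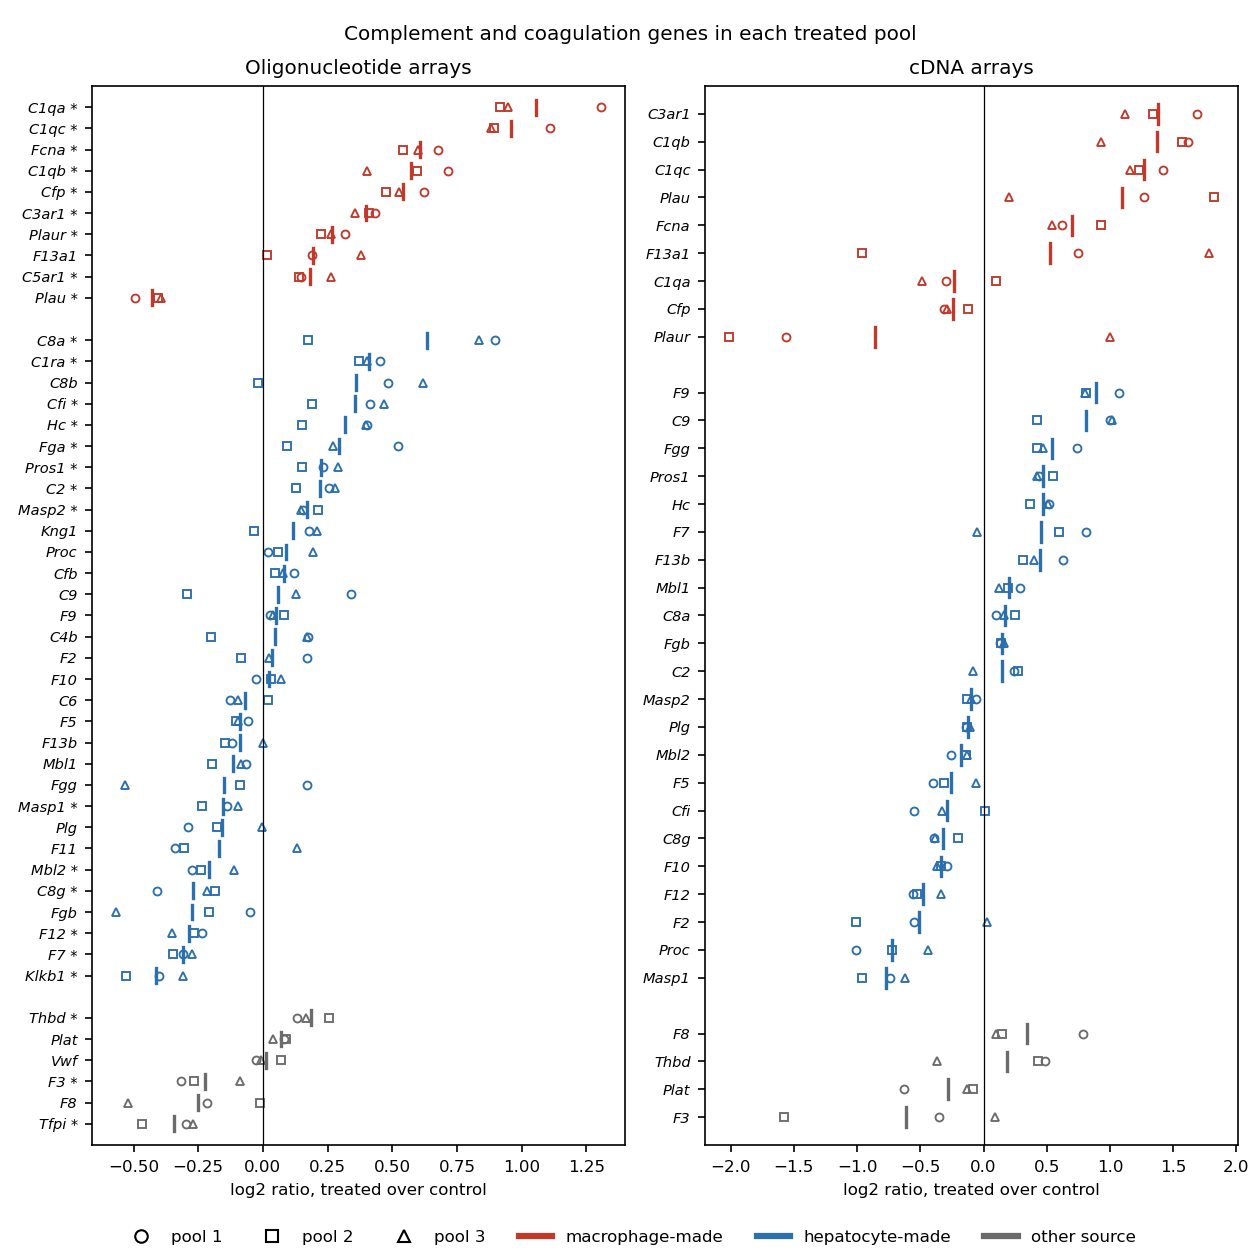
Log2 ratio of treated over control (horizontal axis) of each member on the oligonucleotide arrays (left) and the cDNA arrays (right, wider scale). Each open symbol is 1 treated pool, the vertical tick is the mean of 3 pools, colours mark the main source, and an asterisk marks members called by limma; 26 of 47 carry one on the left, and 0 of 35 on the right.

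The same contrast was visible pool by pool. The median of the macrophage-made members was 0.53 in pool 1, 0.44 in pool 2 and 0.39 in pool 3, and that of the hepatocyte-made members was 0.03, -0.09 and 0.07. The lowest of the first 3 values lay above the highest of the others. The cDNA arrays, read from the same RNA, gave medians of 0.75, 0.93 and 0.93 for 9 macrophage-made members and 0.02, 0.08 and -0.06 for 22 hepatocyte-made ones. Of the 9, 6 had a mean above 0, and C1qa, Cfp and Plaur lay below it. Over all genes of the cDNA arrays the median was 0.06. No member was called there. At an unadjusted p under 0.05 there were 11 higher and 3 lower members among 35, against 791 and 727 among 5011 genes. One-sample tests lacking the prior called 0 members.

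Macrophage markers moved with the macrophage-made members. On the oligonucleotide arrays 14 of 19 measured markers were higher and 3 lower, where 22.0% of all genes were higher and 21.4% lower. The medians of these markers were 1.41, 1.31 and 1.02 in pools 1, 2 and 3. The largest increases were in Gpnmb (4.63 ± 0.07, SD, n = 3 pools), Trem2 (4.31 ± 0.19) and Clec7a (2.66 ± 0.17). The 3 lower markers, named after their values were seen, were the scavenger receptor genes Cd163 (-1.77 ± 0.13) and Marco (-1.24 ± 0.76) and the complement receptor gene Vsig4 (-0.17 ± 0.05). Hepatocyte markers went the other way, with 7 of 16 lower and 0 higher and a median of -0.25. Their largest decreases were in the amino acid enzymes Tat (-1.23 ± 0.26) and Tdo2 (-0.91 ± 0.13). Beside 0 called as higher, 0 hepatocyte markers were higher at an unadjusted p under 0.05. The median of the hepatocyte-made members, 0.04, lay above that of these markers. Alb among these markers and Fgb among these members had ratios equal within 0.001, as described below, and both medians include them. Of the other cell types on the oligonucleotide arrays, 7 of 8 neutrophil and 7 of 7 stellate cell markers were higher and 0 lower. Of 5 platelet markers 3 were higher and 0 lower, and of 5 fat cell markers 1 was higher and 2 lower. At an unadjusted p under 0.05, 0 markers of neutrophils, stellate cells or platelets were lower. On the cDNA arrays 0 markers were called. Means there were above 0 in 11 of 13 macrophage, 3 of 12 hepatocyte, 4 of 5 neutrophil and 4 of 6 stellate cell markers. Of all genes, 2729 of 5011 were above 0. The neutrophil median was 0.07 on the cDNA arrays, and Marco read -0.25 ± 0.51. The part that the numbers of these cells had in these ratios was not tested.

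**Figure D2:**
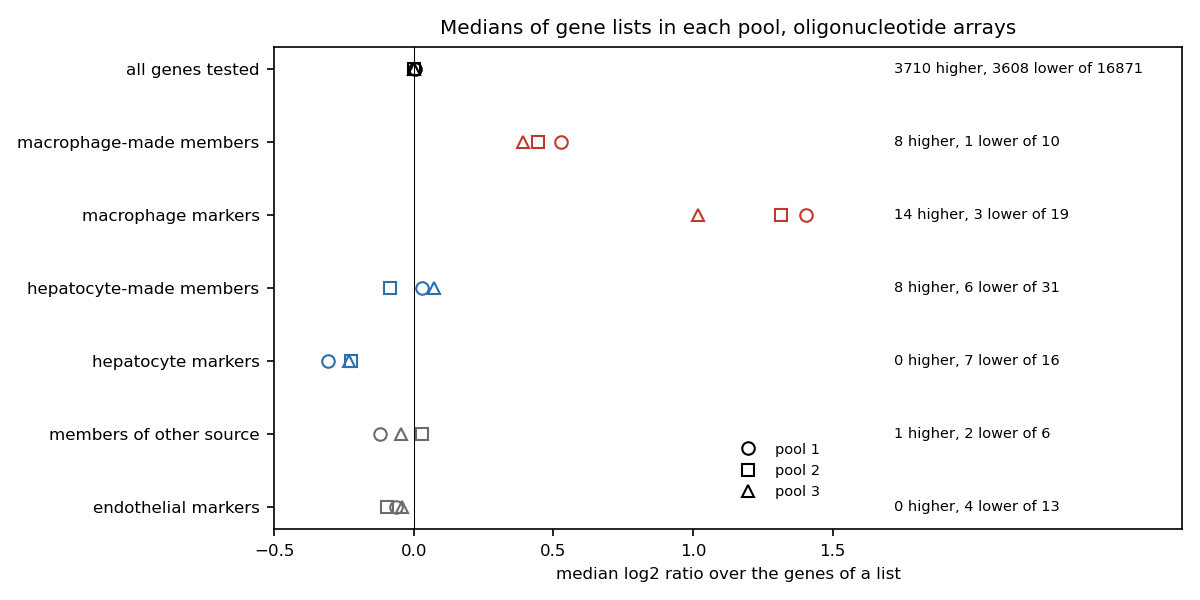
Median log2 ratio (horizontal axis) over the genes of each list in each treated pool on the oligonucleotide arrays, with limma calls at the right. Macrophage-made members lie between 0.39 and 0.53 and macrophage markers between 1.02 and 1.41, while hepatocyte-made members lie between -0.09 and 0.07.

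All 3 C1q chains rose on the oligonucleotide arrays, C1qa and C1qc by more than any other member. C1qa, C1qb and C1qc encode the chains of C1q, the recognition unit of the classical pathway, and lie side by side on mouse chromosome 4. C1qa stood at log2 ratios of 1.31, 0.91 and 0.95 in pools 1, 2 and 3, and C1qc at 1.11, 0.89 and 0.88. C1qb was lower than both in every pool, at 0.72, 0.60 and 0.40. As means, C1qa was 2.08-fold higher in the treated pools (1.06 ± 0.22, SD, n = 3 pools, adjusted p = 6.96e-04), C1qc 1.95-fold (0.96 ± 0.13, adjusted p = 4.14e-04) and C1qb 1.49-fold (0.57 ± 0.16, adjusted p = 0.00196). All 3 stayed called with any 1 pool left out.

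On the cDNA arrays C1qb read 1.62, 1.57 and 0.93 and C1qc 1.42, 1.23 and 1.16, larger than on the oligonucleotide arrays in each pool. C1qa did not follow, with -0.30, 0.10 and -0.49 there. Its difference between the array types was 1.29 (limma adjusted p = 0.0254, or 0.128 with the pool as a block). Averaged over both arrays of a pool, C1qc was 2.17-fold higher (1.12 ± 0.13, adjusted p = 0.0394) and C1qb 1.96-fold (0.97 ± 0.27, adjusted p = 0.0435), both lost without pool 1 or without pool 2, where 0 genes in all were called. C1qa averaged 0.41 ± 0.16 and was not called (adjusted p = 0.0786).

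The promoters of C1qb and C1qc, the chains that both array types showed high, are given because these neighbouring genes moved together with macrophage markers. That of Fcna, also high on both types, is added. C1qa had no promoter in the RefSeq table, and that of C3ar1 is not shown. Sequences are from RefSeq on GRCm38.p6, the 250 bases before the annotated start, 5′ to 3′ on the strand of the gene. Capitals mark GAGGAA, the purine-rich box that the macrophage factor PU.1 is named for, or its reverse complement. C1qb lies at chr4:136886201-136886450 and C1qc at chr4:136892915-136893164, both on the minus strand. Fcna, the ficolin A gene described next, lies at chr2:25627975-25628224, also on the minus strand.
C1qb: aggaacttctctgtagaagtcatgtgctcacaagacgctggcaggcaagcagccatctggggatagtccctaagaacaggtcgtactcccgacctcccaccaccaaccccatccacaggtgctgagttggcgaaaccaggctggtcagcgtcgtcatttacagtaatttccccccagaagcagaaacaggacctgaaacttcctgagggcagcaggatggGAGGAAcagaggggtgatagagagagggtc
C1qc: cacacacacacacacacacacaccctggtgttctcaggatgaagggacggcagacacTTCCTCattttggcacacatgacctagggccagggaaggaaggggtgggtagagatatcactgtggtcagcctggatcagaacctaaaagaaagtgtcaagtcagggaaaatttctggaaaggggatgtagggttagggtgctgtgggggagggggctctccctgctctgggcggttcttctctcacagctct
Fcna: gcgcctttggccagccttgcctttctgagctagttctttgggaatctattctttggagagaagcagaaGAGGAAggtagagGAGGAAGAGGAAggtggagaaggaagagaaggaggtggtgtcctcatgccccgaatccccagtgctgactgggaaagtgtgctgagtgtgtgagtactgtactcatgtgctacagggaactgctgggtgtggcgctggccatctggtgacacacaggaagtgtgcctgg
The match in C1qb began 30 bases before the start on the gene's own strand, that in C1qc 193 bases before it on the opposite strand, and Fcna held 3 matches, beginning 182, 169 and 163 bases before it. Of 36 members with a promoter in the RefSeq table, GAGGAA was found on either strand in 5 of 8 macrophage-made and 2 of 24 hepatocyte-made members. Among all 32851 promoters the share was 23.3%. Members were counted once per gene over all its promoters, and this share was counted per promoter. Of the macrophage-made members in that table, C3ar1, C5ar1 and Cfp held no match, although all were called higher on the oligonucleotide arrays. C3ar1 was also high on both array types, and F13a1, which was not called, held 1 match. A match of letters is a description and not a bound site.

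Fcna and Cfp rose as well on the oligonucleotide arrays. Fcna encodes ficolin A, a lectin of macrophages that starts the lectin pathway, and its ratios of 0.68, 0.54 and 0.60 differed little between pools. It was 1.52-fold higher (0.61 ± 0.07, adjusted p = 6.44e-04). The cDNA arrays gave 0.62, 0.93 and 0.54, and the average of both types was 1.57-fold higher (0.65 ± 0.08, adjusted p = 0.0414), a call lost without pool 1 or without pool 2. Cfp encodes properdin, which stabilises the convertase of the alternative pathway. It stood at 0.62, 0.48 and 0.53 and was 1.46-fold higher (0.54 ± 0.07, adjusted p = 8.88e-04). The cDNA arrays gave -0.31, -0.12 and -0.29 for Cfp, all below 0, and the difference between array types was 0.78 (adjusted p = 0.0217, or 0.128 with the pool as a block). Both Fcna and Cfp stayed called on the oligonucleotide arrays with any 1 pool left out.

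Both receptors of the anaphylatoxins among the members were higher on the oligonucleotide arrays, C3ar1 by more. C3ar1, which senses C3a, had nearly equal ratios of 0.43, 0.41 and 0.35 (0.40 ± 0.04, 1.32-fold, adjusted p = 0.00148). Its cDNA ratios of 1.69, 1.34 and 1.12 were the highest mean of any member on those arrays, at 1.38 ± 0.29. The array types differed by -0.98 for it (adjusted p = 0.0292, or 0.128 with the block), and their average was 1.85-fold higher (0.89 ± 0.16, adjusted p = 0.0394), lost without pool 1 or without pool 2. C5ar1, which senses C5a, stood at 0.15, 0.14 and 0.26 (0.18 ± 0.07, adjusted p = 0.0217), a small increase that was not called with any of the pools left out. It was not measured on the cDNA arrays. C5ar2, a further receptor gene outside the members, read 0.05, -0.03 and 0.16 on the oligonucleotide arrays and was not called (adjusted p = 0.37).

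The urokinase pair split. Plaur, the cell surface receptor that holds urokinase, read 0.32, 0.23 and 0.26 (0.27 ± 0.05, adjusted p = 0.00491). Plau, urokinase itself, which activates plasminogen, was the single macrophage-made member that fell, at -0.49, -0.40 and -0.39 (-0.43 ± 0.05, adjusted p = 0.00136). It was also the lowest mean among all 47 members. On the cDNA arrays the means of both genes had the opposite sign and the pools varied widely, with 1.27, 1.82 and 0.20 for Plau and -1.56, -2.01 and 1.0 for Plaur. These differences between array types did not pass the threshold (adjusted p = 0.0670 and 0.341). F13a1, the subunit of factor XIII that cross-links fibrin and that macrophages and platelets hold, was not called, at 0.19, 0.01 and 0.38 (0.19 ± 0.18, adjusted p = 0.0743). Its cDNA ratios spread from -0.96 to 1.78. Of the platelet markers, Ppbp (0.93 ± 0.22), Pf4 (0.66 ± 0.28) and Itga2b (0.18 ± 0.05) were higher on the oligonucleotide arrays, and Gp9 (-0.01 ± 0.08) and Gp1bb (-0.01 ± 0.06) were not called. The cDNA means were 0.62 ± 0.24 for Pf4 and -0.60 ± 0.97 for Itga2b. Their part in F13a1 was not tested.

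Of the 7 hepatocyte-made components of the classical and lectin pathways, C1ra, C2 and Masp2 were higher, Mbl2 and Masp1 lower, and C4b and Mbl1 not called. C1ra, a protease that C1q activates, was the firmest of them at 0.45, 0.37 and 0.40 (0.41 ± 0.04, adjusted p = 0.00139). C2, the protease part of the C3 convertase, was higher at 0.25, 0.13 and 0.28 (0.22 ± 0.08, adjusted p = 0.0137), but not without pool 1, and read 0.24, 0.27 and -0.08 on the cDNA arrays. C4b, the other part of that convertase, read 0.17, -0.20 and 0.17 and was not called (adjusted p = 0.662). Mouse C4b and C1ra have near-identical copies, C4a and C1rb, so a probe may read both. Cfb, the protease of the alternative pathway, lay at 0.12, 0.05 and 0.08 and was not called (adjusted p = 0.154).

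On the oligonucleotide arrays the mannose-binding lectins and their proteases had mean ratios within 0.25 of 0. Mbl2, a mannose-binding lectin, was lower at -0.28, -0.24 and -0.11 (-0.21 ± 0.09, adjusted p = 0.0178), and Mbl1, the other one, was not called at -0.06, -0.19 and -0.09 (adjusted p = 0.0883). Masp1 and Masp2 encode the proteases bound to these lectins. Masp2 was higher at 0.15, 0.21 and 0.15 (0.17 ± 0.04, adjusted p = 0.0194) and Masp1 lower at -0.14, -0.23 and -0.10 (-0.16 ± 0.07, adjusted p = 0.0368). The calls of Mbl2, Masp1 and Masp2 were each lost without pool 1 and without pool 2. On the cDNA arrays Masp1 was lower by more, at -0.74, -0.96 and -0.62, and the array types differed by 0.62 (adjusted p = 0.0410, or 0.135 with the block). The others read -0.18 ± 0.07 (Mbl2), 0.20 ± 0.09 (Mbl1) and -0.10 ± 0.04 (Masp2) there.

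The terminal pathway split among its members and between pools. C8a, a chain of the pore component C8, stood at 0.89, 0.17 and 0.83, so pool 2 lay well below the others (0.63 ± 0.40, adjusted p = 0.0146). C8b, its partner chain and its neighbour on chromosome 4, had the same shape at 0.48, -0.02 and 0.62 but was not called (0.36 ± 0.34, adjusted p = 0.0521). C8g, the small lipocalin chain, was lower at -0.41, -0.18 and -0.22 (-0.27 ± 0.12, adjusted p = 0.0121). Hc, which encodes C5, was higher at 0.40, 0.15 and 0.40 (0.32 ± 0.14, adjusted p = 0.00972), and so was Cfi, the protease that inactivates C3b, at 0.41, 0.19 and 0.47 (0.36 ± 0.15, adjusted p = 0.00722). C9, the pore-forming unit, read 0.34, -0.29 and 0.13, and C6 -0.13, 0.02 and -0.10, and neither was called (adjusted p = 0.709 and 0.283). Without pool 1 the calls of C8a, C8g and Hc were lost, and without pool 3 that of C8a.

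The dip in pool 2 was shared by Hc, C8a, C8b, C9 and Cfi, while C6 and C8g were highest there. On the oligonucleotide arrays 19 of 31 hepatocyte-made members had their lowest ratio in pool 2, or 61.3%, against 37.2% of all genes. The macrophage-made members had a like share, 6 of 10 or 60.0%. The cDNA arrays, with 7 of 22 hepatocyte-made members or 31.8% against 23.2% of all genes, showed less of it. C9 was lowest in pool 2 there at 1.0, 0.42 and 1.02, and Hc at 0.52, 0.37 and 0.51, while C8a (0.10, 0.25 and 0.16) and Cfi (-0.55, 0.01 and -0.33) did not. C8g read -0.39, -0.20 and -0.38 on the cDNA arrays. These shares describe the pools and carry no test.

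**Figure D3:**
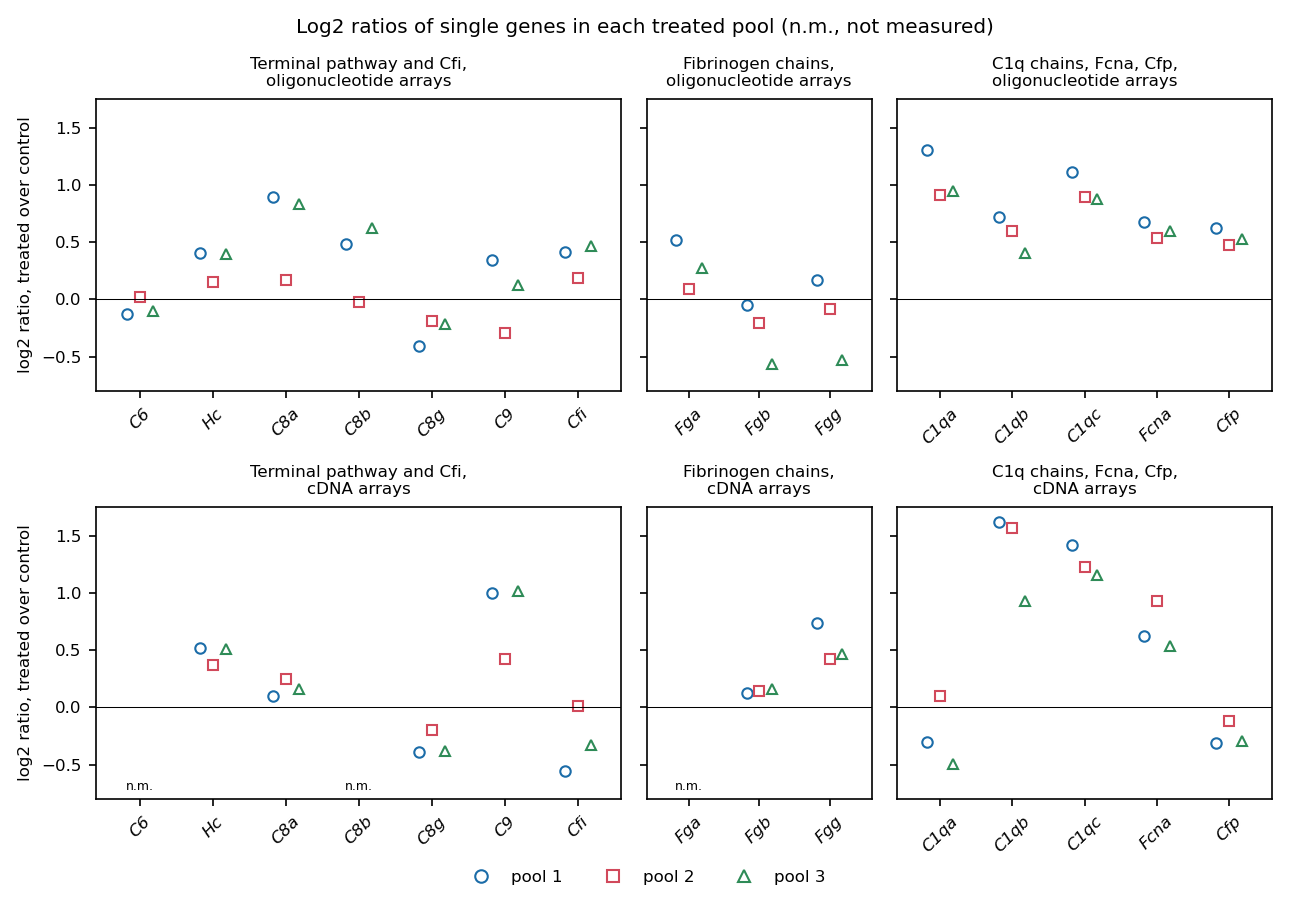
Log2 ratio of treated over control (vertical axis) in each treated pool for genes of the terminal pathway and Cfi, the fibrinogen chains, and the C1q chains with Fcna and Cfp, on the oligonucleotide arrays (top) and cDNA arrays (bottom). C8a read 0.17 in pool 2 against 0.89 and 0.83 in the others on the oligonucleotide arrays, while the C1q chains ranged from 0.40 to 1.31 there.

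Among the fibrinogen chains, Fga alone was called on the oligonucleotide arrays, and differences between the chains were not tested. Fga, Fgb and Fgg encode the chains of fibrinogen, the clot protein, and are neighbours on chromosome 3. Fga was higher at 0.52, 0.09 and 0.27 (0.30 ± 0.22, adjusted p = 0.0312), a call lost without pool 1 or without pool 3. Fgg read 0.17, -0.09 and -0.53 and Fgb -0.05, -0.21 and -0.57, both lowest in pool 3 and not called (adjusted p = 0.368 and 0.0627). Within 0.001, the ratios of Fgb equalled those of 9 other genes on each oligonucleotide array, among them Alb and Apoe, so they cannot be read as a measurement of Fgb alone. On the cDNA arrays Fgb lay at 0.13, 0.14 and 0.16 and Fgg at 0.74, 0.42 and 0.47, all above 0.

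The promoters of Fga and Fgb, the fibrinogen genes with a match to the motif marked below, are shown as hepatocyte genes to set beside those of C1q. That of Fgg held no match and is not shown. Fga lies at chr3:83025903-83026152 on the plus strand and Fgb at chr3:83049864-83050113 on the minus strand. Capitals mark the reverse complement of GTTAAT, the half-site of HNF1, a hepatocyte transcription factor.
Fga: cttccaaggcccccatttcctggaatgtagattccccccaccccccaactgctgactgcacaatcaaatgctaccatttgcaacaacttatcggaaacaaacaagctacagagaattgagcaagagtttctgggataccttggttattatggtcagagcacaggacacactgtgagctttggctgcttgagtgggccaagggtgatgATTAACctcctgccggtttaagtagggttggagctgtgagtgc
Fgb: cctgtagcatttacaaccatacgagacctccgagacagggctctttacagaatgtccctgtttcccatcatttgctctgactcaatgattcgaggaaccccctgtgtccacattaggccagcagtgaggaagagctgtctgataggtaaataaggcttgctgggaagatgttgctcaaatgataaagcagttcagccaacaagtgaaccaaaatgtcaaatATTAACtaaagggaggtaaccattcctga
The match began 43 bases before the start in Fga and 29 in Fgb, on the opposite strand in both, and the Fgb sequence also held GAGGAA in 2 places, not capitalised. GTTAAT was found in 7 of 24 hepatocyte-made and 1 of 8 macrophage-made members with a promoter in the table, and in 6.43% of all promoters. Members were again counted per gene, and the share over all promoters per promoter. Beside Fga and Fgb, the hepatocyte-made members that held it were C1ra, C8a, C8b, Hc and F13b.

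Starters of coagulation were lower on the oligonucleotide arrays, and its core proteases were not called there. F7, the protease that binds tissue factor, stood at -0.31, -0.35 and -0.27 (-0.31 ± 0.04, adjusted p = 0.00297). F3, tissue factor itself, was lower at -0.32, -0.27 and -0.09 (-0.22 ± 0.12, adjusted p = 0.0221), not called without pool 1 or without pool 2. In the contact system, F12 lay at -0.23, -0.27 and -0.35 (-0.28 ± 0.06, adjusted p = 0.00475) and Klkb1, prekallikrein, which F12 activates, at -0.40, -0.53 and -0.31 (-0.41 ± 0.11, adjusted p = 0.00288). Klkb1 was the lowest hepatocyte-made member on the oligonucleotide arrays. F7, F12 and Klkb1 stayed called with any 1 pool left out. The other contact genes, F11 (-0.34, -0.31 and 0.13) and the kininogen gene Kng1 (0.18, -0.04 and 0.21), were not called.

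The core enzymes F2, F9 and F10 and the cofactor genes F5 and F8 gave 0 limma calls among 5, with 1 of them at an unadjusted p under 0.05 and 0 called by the one-sample test lacking the prior. F2, prothrombin, lay at 0.17, -0.09 and 0.03, F9 at 0.03, 0.08 and 0.04 and F10 at -0.03, 0.03 and 0.07. F5 lay at -0.06, -0.11 and -0.10, and F8, which sinusoidal endothelium makes, spread over -0.22, -0.01 and -0.52 (adjusted p = 0.0765). The range of the other means was narrow, from -0.09 to 0.05. F13b, the carrier subunit of factor XIII, was not called either, at -0.12, -0.15 and 0.00 in rounded values.

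Coagulation ratios were less alike on the cDNA arrays. F12 lay below 0 on both types, with cDNA ratios of -0.56, -0.53 and -0.34. Klkb1 had no feature of its own there, and the unused feature that named both Cyp4v3 and Klkb1 read 0.12, 0.29 and -0.01. F7 read 0.81, 0.60 and -0.05 and F3 -0.35, -1.58 and 0.09. F9, near 0 on the oligonucleotide arrays, stood at 1.07, 0.81 and 0.80, a difference of -0.84 between array types (adjusted p = 0.0217, or 0.128 with the block). Its cDNA mean of 0.89 ± 0.15 was the highest of any hepatocyte-made member. The other cDNA means were -0.51 ± 0.52 for F2, -0.33 ± 0.04 for F10, -0.26 ± 0.18 for F5, 0.35 ± 0.38 for F8 and 0.45 ± 0.17 for F13b.

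Among the brakes on clotting, Pros1 and Thbd were higher and Tfpi lower. Pros1 encodes protein S, cofactor of activated protein C, and stood at 0.23, 0.15 and 0.29 (0.23 ± 0.07, adjusted p = 0.0112), not called without pool 1. Its cDNA ratios of 0.44, 0.55 and 0.42 were also above 0. Thbd, thrombomodulin, the endothelial switch that turns thrombin on protein C, read 0.13, 0.25 and 0.17 (0.18 ± 0.06, adjusted p = 0.0200), lost without pool 1 or without pool 2, and 0.49, 0.43 and -0.37 on the cDNA arrays. Tfpi, which blocks tissue factor and F7, read -0.30, -0.47 and -0.27 (-0.34 ± 0.11, adjusted p = 0.00466) and stayed called with any 1 pool left out. The cDNA feature of Tfpi held a value other than 0 on 1 array and entered no test. Proc, protein C, was not called at 0.02, 0.06 and 0.19, but lay at -1.01, -0.72 and -0.44 on the cDNA arrays, a difference of 0.81 (adjusted p = 0.0416, or 0.128 with the block).

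Fibrinolysis genes other than the urokinase pair were not called. Plg, plasminogen, read -0.29, -0.18 and 0.00 in rounded values (adjusted p = 0.0863) and -0.13 ± 0.02 on the cDNA arrays. Plat, tissue plasminogen activator, read 0.08, 0.09 and 0.04 (adjusted p = 0.214), against -0.28 ± 0.30 on the cDNA arrays. Vwf, which tethers platelets, lay at -0.03, 0.07 and -0.01 as the mean of 2 features, of which 1 read -0.09, 0.01 and -0.09 and the other 0.04, 0.13 and 0.08. Of 13 endothelial markers on the oligonucleotide arrays 4 were lower and 0 higher, where 21.4% of all genes were lower and 22.0% higher. Their median was -0.06, and 1 was higher at an unadjusted p under 0.05. Without pool 1 there was 1 lower, against 2029 of 16871 genes. Without pool 2 or without pool 3 there were 2, against 2397 of 16886 and 3064 of 16872 genes. On the cDNA arrays 0 were called, the median was 0.08 and 4 of 7 means lay above 0, against 2729 of 5011 genes.

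On the oligonucleotide arrays, 13 of 22 measured complement members were higher and 3 lower, and 4 of 25 coagulation members were higher and 6 lower. Of all genes there, 22.0% were higher and 21.4% lower. The coagulation share of calls, 10 of 25, was near the 43.4% of all genes. The medians were 0.27 and -0.09. Macrophage-made genes among the higher complement members were C1qa, C1qb, C1qc, C3ar1, C5ar1, Cfp and Fcna, while those in coagulation were F13a1, Plau and Plaur. The part of the cell source in this contrast was not tested. All 6 members at or beyond 0.5 on these arrays belonged to complement, and 5 of them were macrophage-made. Without pool 1, complement counted 8 higher and 0 lower and coagulation 1 and 6, against 1996 and 2029 of 16871 genes. Without pool 2, complement counted 12 and 1 and coagulation 5 and 6, against 2533 and 2397 of 16886 genes. Without pool 3, complement counted 11 and 3 and coagulation 3 and 8, against 3180 and 3064 of 16872 genes. On the cDNA arrays 6 of 16 complement and 8 of 19 coagulation members reached 0.5 in either direction, against 41.2% of all genes. The medians there were 0.16 and 0.14.

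Whether array types differed was tested for the 35 members measured on both. Limma called 6, or C1qa, Cfp, Masp1 and Proc with a higher ratio on the oligonucleotide arrays and C3ar1 and F9 with a lower one, where 11.4% of 4702 genes were called, 6.25% higher and 5.17% lower on the oligonucleotide arrays. With the pool as a block, the pairing by shared RNA, 0 of these members were called, and the smallest adjusted p among them was 0.128. Without pool 1 or without pool 2 there were also 0 calls, and without pool 3 there were 10. Averaged over both arrays of a pool, 4 of 35 members were higher and 0 lower, where 5.10% of all genes were called, 2.47% higher and 2.64% lower. They were C1qb, C1qc, C3ar1 and Fcna, all macrophage-made. At an unadjusted p under 0.05, 10 of the 35 were higher and 4 lower, against 894 and 813 of 4702 genes. One-sample tests lacking the prior called 0 members.

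**Figure D4:**
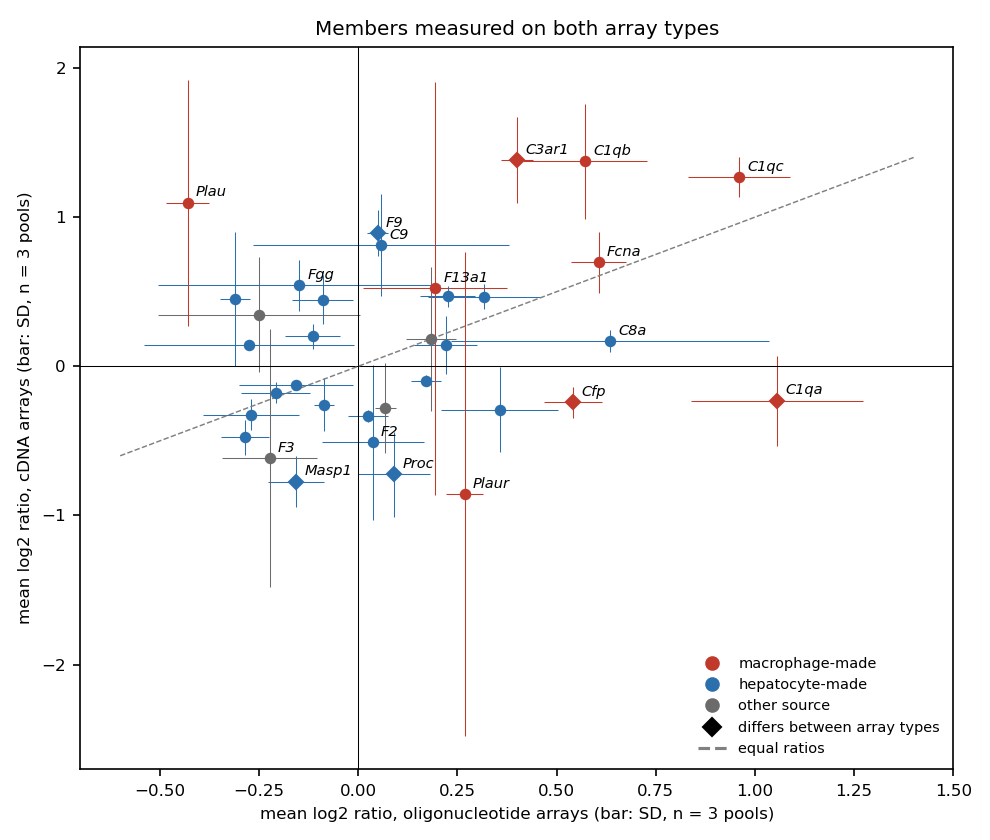
Mean log2 ratio of treated over control on the oligonucleotide arrays (horizontal axis) and cDNA arrays (vertical axis) for the 35 members measured on both, with bars of 1 SD over 3 pools. C1qb, C1qc, C3ar1 and Fcna lie above 0 on both axes, and the 6 diamonds differ between array types in the fit without the pool as a block.

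Of 44 further genes of complement and coagulation, 39 were measured on the oligonucleotide arrays, with 14 higher, 9 lower and a median of 0.04. The largest increases were in Anxa2 (1.49 ± 0.28), a cell surface site of plasmin formation, Itgax (1.34 ± 0.21) and Itgb2 (0.63 ± 0.11), chains of the integrin complement receptors, and Gas6 (0.57 ± 0.22), a vitamin K-dependent ligand of dead-cell receptors. The largest decreases were in Itgam (-0.43 ± 0.06), the partner chain of Itgb2 in complement receptor 3, Vkorc1l1 (-0.42 ± 0.05), which recycles vitamin K, Lman1 (-0.35 ± 0.09), which carries F5 and F8 out of the endoplasmic reticulum, and the thrombin receptor gene F2rl2 (-0.31 ± 0.06). Without pool 1 or without pool 2, 5 of these genes were lower. The share called, 23 of 39, stood against 43.4% of all genes. On the cDNA arrays 0 of 21 were called and 4 had an unadjusted p under 0.05.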

How the data were processed

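Per the labels' protocols, total RNA of each pool was split over both array types, with 0.5 ug amplified and labelled for the oligonucleotide array and 10 ug labelled directly for the cDNA array. The deposited values are log ratios made by the authors, read here as log2; their log base, background correction, normalization and filters were not given in the sources used here. Direction came from the titles and dyes in the labels. An exact 0 counted as missing, and the median of the remaining features was subtracted per array. Before centring these medians were 0.01, 0.01 and 0.01 for the oligonucleotide and -0.07, -0.09 and -0.02 for the cDNA arrays. Features were named from the platform annotation, and only those with 1 gene entered (18658 of 22575 and 7410 of 13482). On the cDNA array 1 feature named both C4a and C4b and 1 both Cyp4v3 and Klkb1, and neither was used. Features of a gene with values on all 3 arrays were averaged.

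Limma 3.58.1 in R 4.3.3 (lmFit, eBayes) tested each type's 3 ratios against 0, with Benjamini-Hochberg adjustment over all genes of that type and a threshold of 0.05. The scripts were tested on simulated data. Pool numbers pair the arrays because both read 1 RNA; their deviations from the group means correlated across genes at 0.06, 0.07 and 0.07. Members, classes and lists were chosen with earlier results of these data known, so no list carries a p. All members called on either array type or in the average of both, those with a mean of at least 0.5 in size and those of opposite sign on the 2 types are named by rule, and of other lists the largest changes; the remaining members are given to complete each role. The alternatives are given in the closing section. Pools are separate sets of mice per the labels, and 3 arrays per type limit the precision. Python 3.11.15, pandas 2.3.3 and matplotlib 3.10.9 were used for tables and plots.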

Additional observations from a re-analysis of the deposited data

Results flagged for a closer look

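Members whose ratio differed between the array types in the fit without the pool as a block are listed with the difference, oligonucleotide minus cDNA, on the log2 scale. C1qa differed by 1.29, Cfp by 0.78, Proc by 0.81 and Masp1 by 0.62, each higher on the oligonucleotide arrays. C3ar1 differed by -0.98 and F9 by -0.84. In C1qa, Cfp and Proc the mean had opposite signs on the 2 types. With the pool as a block none of the 6 was called, with adjusted p from 0.128 to 0.135. The cause was not tested.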

How the results depend on the processing

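Another centring, quantile normalization, the median feature or a robust prior kept the number of members called on the oligonucleotide arrays at 17 or 18 higher and 9 lower. Leaving out 1 pool gave 9 to 17 higher and 6 to 11 lower, and the one-sample test without the shared prior gave 0 and 0. Of the 26 called members, 14 stayed called with any 1 pool left out, while 12 were lost without pool 1, 6 without pool 2 and 3 without pool 3. Under every alternative run, 0 members were called on the cDNA arrays. For the average of both types, 4 members were higher, against 0 with values of exactly 0 taken as measured, 0 without the shared prior and 0 to 4 with 1 pool left out, and 5 higher and 2 lower after quantile normalization. All genes called there numbered 240, against 514 after quantile normalization and 0 with zeros as measured. The 6 members that differed between array types became 0 with the pool as a replicate block and 0 to 10 with 1 pool left out. The macrophage-made median on the oligonucleotide arrays was 0.57 without its 3 receptors, against 0.47, and the hepatocyte-made median -0.078 without genes macrophages also make, against 0.04. The cause of these changes was not tested, beyond that a left-out pool leaves fewer arrays. No direction of a called member reversed under the alternatives run on the same arrays. Between the types, C1qa, Cfp, Cfi, Masp2, F7, Plau and Plaur, called on the oligonucleotide arrays, had cDNA means of the opposite sign. The average of both types took the cDNA sign for F7, Plau and Plaur (0.07, 0.33 and -0.29). It kept the oligonucleotide sign for C1qa, Cfp, Cfi and Masp2.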
